A study of Mus musculus with 3 samples.

Results

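The variable genes of the immunoglobulin heavy chain (Ighv) were followed in single splenic B cells of mice with deregulated human BCL2 and of a control. All rows of the deposited gene list whose symbol begins with Ighv were taken, which gave 185 of 32285 genes under 183 symbols. In each cell, the Ighv gene with the most unique molecular identifiers (UMIs, which count captured RNA molecules) was taken as the one that cell used, when it had at least 2 UMIs and no tie. There was 1 library for each of 3 genotypes. The 3′RR-BCL2 mouse carried a randomly integrated transgene in which the core IgH 3′ superenhancer drives a BCL2 cassette. The Igκ-BCL2 mouse carried the same cassette as a knock-in just upstream of the Eκ enhancer, in place of the deleted Jκ region. The third mouse was WT. Spleens were taken on day 10 after 1 intraperitoneal dose of sheep erythrocytes (SRBCs), an antigen that elicits germinal centers (GCs). The study describes a mixed B6 and 129 background, hemizygous mutants and magnetic sorting of B cells in all mice. By the labels, however, WT cells were sorted B cells, and those of each BCL2 mouse were whole tissue cells. Ages are not given in the labels. The human BCL2 cassette itself was not counted among the mouse genes.

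A heavy chain gene is assembled in B-cell progenitors by V(D)J recombination, which joins 1 of many Ighv segments to a D and a J segment. Each B cell normally expresses a single productive heavy chain, so the Ighv gene read in a mature B cell is a mark of its clonal origin. The Ighv genes fall into families by sequence. Ighv1 (the J558 family) is the largest in mice, and Ighv5 and Ighv2 lie nearest to the D and J segments. In germinal centers the joined V segment is mutated and selected, marginal zone (MZ) B cells and B-1 cells are known for biased V gene usage, and plasma cells transcribe their heavy chain at very high levels.

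The members lie on the reverse strand of mouse chromosome 12, between 113572927 and 116010093 in GRCm38, and the first of them begins 143.1 kb from Ighj1. The 3′ ends of the 10 most used genes are shown first, because this end carries the codons that are joined to D and J and start the most variable loop of the heavy chain. They are the last 60 bases of the V segment in the GENCODE transcripts of GRCm38, with capitals for the motif TGTGC, which holds the codon of the conserved cysteine and the first 2 bases after it.
Ighv1-26: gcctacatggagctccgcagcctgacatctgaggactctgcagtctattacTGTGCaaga
Ighv1-64: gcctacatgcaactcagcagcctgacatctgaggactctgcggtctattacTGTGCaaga
Ighv3-6: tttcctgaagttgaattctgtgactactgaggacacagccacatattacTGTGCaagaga
Ighv6-3: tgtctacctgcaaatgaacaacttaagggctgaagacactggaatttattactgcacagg
Ighv1-9: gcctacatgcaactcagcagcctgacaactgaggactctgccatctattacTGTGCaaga
Ighv9-3: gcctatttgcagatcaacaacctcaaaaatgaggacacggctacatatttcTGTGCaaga
Ighv1-81: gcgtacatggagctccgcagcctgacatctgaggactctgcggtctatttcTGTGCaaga
Ighv1-82: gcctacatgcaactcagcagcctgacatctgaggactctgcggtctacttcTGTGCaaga
Ighv5-4: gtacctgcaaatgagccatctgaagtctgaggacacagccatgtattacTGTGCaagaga
Ighv1-80: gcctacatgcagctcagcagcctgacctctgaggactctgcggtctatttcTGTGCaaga
The motif was found on the coding strand within the last 30 bases of 91 of 113 functional members (80.5%) and of 32 of 70 pseudogenes (45.7%). It is absent from this stretch of Ighv6-3, which reads tgc, also a cysteine codon, at that place. A member without the motif thus need not lack the cysteine. Of the 10, Ighv1-26 lies at chr12:114788372-114788805, Ighv1-64 at chr12:115507545-115508031, Ighv3-6 at chr12:114288152-114288582, Ighv6-3 at chr12:114391712-114392169 and Ighv1-9 at chr12:114583569-114584002. Ighv9-3 lies at chr12:114140692-114141122, Ighv1-81 at chr12:115920279-115920712, Ighv1-82 at chr12:115952538-115953005, Ighv5-4 at chr12:113597446-113597977 and Ighv1-80 at chr12:115912344-115912776. Each of these ranges spans the leader exon, a short intron and the V exon.

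The libraries held 7579, 7034 and 11269 barcodes (3′RR-BCL2, Igκ-BCL2, WT), of which 6602, 6262 and 9956 B cells were kept with medians of 5302.5, 4843.5 and 5037 UMIs. Between 15 and 24 barcodes were shared by each pair of libraries. With 1 library per genotype no test between genotypes was possible, and intervals below are exact 95% intervals (Clopper-Pearson for shares, Poisson for sums and their ratios) that cover counting error only. A gene was called different at 2-fold. Xist, transcribed from the inactive X chromosome of females, stood at 1697 UMIs per 1000000 in 3′RR-BCL2 cells, against 0.170 in Igκ-BCL2 and 0.153 in WT cells, so that genotype and sex cannot be told apart in the 3′RR-BCL2 comparison.

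Ighv RNA came almost wholly from genes annotated as functional. The 113 functional genes held 20949 UMIs (99.2%), the 70 pseudogenes 179 (0.847%), and the remaining 2 rows none. Of the functional genes, 109 had at least 1 UMI and 96 were the leading gene of at least 1 cell. The pseudogenes led in 14 of 4425 assigned cells, and the highest of them was Ighv1-2 with 10, 13 and 16 UMIs in 3′RR-BCL2, Igκ-BCL2 and WT. The symbols Ighv5-8 and Ighv1-13 occur on a pair of rows each and were kept apart by identifier.

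Some members are near-identical copies, whose reads could be split or dropped in counting. The share of 75-base windows of a transcript that occur in no other Ighv transcript was 2.81% for Ighv1-71 and 8.88% for Ighv1-62-2, which differ by 1 base over 359 and lie 295.8 kb apart. They had 3 and 6 UMIs over the libraries. Ighv1-72, known as the V gene that dominates the response of C57BL/6 mice to the hapten NP, differs by 3 bases over 396 from Ighv1-62-3. Their last 240 bases are shown because these genes recur in the results, with capitals for the bases at which they differ (Ighv1-72 at chr12:115757984-115758223, Ighv1-62-3 at chr12:115460999-115461238).
Ighv1-72: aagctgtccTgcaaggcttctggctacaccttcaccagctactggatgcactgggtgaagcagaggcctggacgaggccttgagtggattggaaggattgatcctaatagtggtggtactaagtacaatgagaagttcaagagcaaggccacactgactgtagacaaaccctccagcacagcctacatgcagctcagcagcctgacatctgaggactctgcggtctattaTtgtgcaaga
Ighv1-62-3: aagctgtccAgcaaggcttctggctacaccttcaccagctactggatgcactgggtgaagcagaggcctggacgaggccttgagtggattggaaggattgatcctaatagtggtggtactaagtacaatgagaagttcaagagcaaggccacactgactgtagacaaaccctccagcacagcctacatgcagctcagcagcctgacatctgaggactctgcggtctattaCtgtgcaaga
Only 28.3% of the windows of Ighv1-72 are unique, yet it held 65, 64 and 91 UMIs in 3′RR-BCL2, Igκ-BCL2 and WT cells, against 5, 7 and 11 UMIs for Ighv1-62-3. Of the 4 functional genes with under 50% unique windows, 1 reached 20 cells, and of the 43 with only unique windows, 20 did. Values of these copies are uncertain wherever they are given.

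**Figure D1:**
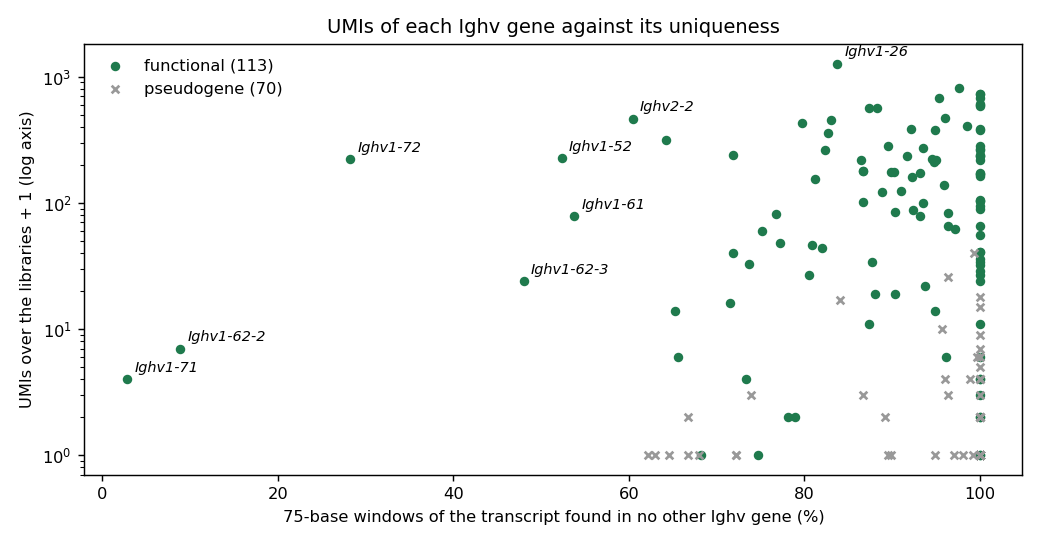
UMIs of each Ighv gene summed over the 3 libraries, plus 1, on a log axis, against the share of 75-base windows of its transcript that no other Ighv gene holds. Circles are functional genes and crosses pseudogenes; Ighv1-71 and Ighv1-62-2 lie at the lower left with 3 and 6 UMIs, and Ighv1-26 is the highest with 1267.

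An Ighv gene could be assigned in a minority of B cells, and in fewer of those of both BCL2 libraries than of WT. For 3′RR-BCL2 these were 1088 of 6602 cells (16.5%, interval 15.6 to 17.4), for Igκ-BCL2 1078 of 6262 (17.2%, 16.3 to 18.2) and for WT 2259 of 9956 (22.7%, 21.9 to 23.5). After each cell was thinned to 2000 UMIs the shares were 3.64%, 4.46% and 5.92%, so the order was kept at equal depth. Cells with any Ighv UMI made up 44.4%, 44.8% and 56.1%. The kit primes at the 3′ end of RNA, far from the V segment, and Ighv UMIs were 27.3, 25.7 and 42.1 per 1000 UMIs of heavy chain constant genes in 3′RR-BCL2, Igκ-BCL2 and WT. The like ratio for the kappa light chain, Igkv over Igkc UMIs, was 9.28, 10.7 and 9.80 per 1000.

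Within a cell the Ighv UMIs came mostly from a single gene. In 85.9%, 87.8% and 84.9% of assigned cells (3′RR-BCL2, Igκ-BCL2, WT) no other Ighv gene had a UMI, and in 17, 15 and 48 cells a second gene had at least 2. Free RNA was read from barcodes with at least 2 UMIs of the T-cell genes Cd3 or the macrophage genes C1q. Those with at most 1 UMI of the B-cell receptor genes Cd79a and Cd79b held no Ighv UMI in 7, 5 and 11 barcodes, with medians of 6296, 7808 and 3437 UMIs. For so few barcodes the upper limits of the share with a UMI are 41.0%, 52.2% and 28.5%.

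Largely the same genes led in the 3 libraries. Ighv1-26 was the most used in each, in 62, 83 and 125 cells of 3′RR-BCL2, Igκ-BCL2 and WT (5.70%, 7.70% and 5.53%). The other leaders are given in the order of their cells summed over the libraries, of which WT holds the most, and their order within a library differed. Ighv1-64 took 4.41%, 3.34% and 4.56%. Ighv3-6 took 3.86%, 2.50% and 4.43%, Ighv6-3 4.04%, 4.92% and 3.099%, Ighv1-9 2.94%, 4.08% and 3.63%, and Ighv9-3 4.596%, 4.17% and 2.79%. The remaining 4 of the 10 leaders, Ighv1-81, Ighv1-82, Ighv5-4 and Ighv1-80, lay between 2.35% and 3.58%. The 10 genes that led in each library held 38.7%, 39.5% and 36.2% of its assigned cells, and 7 of 10 were shared by each pair of libraries. Across the 113 functional genes, usage correlated at Pearson 0.948 between 3′RR-BCL2 and WT, 0.9003 between Igκ-BCL2 and WT and 0.931 between both BCL2 libraries. This is a description over genes, which share the same locus, reference and mapping.

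**Figure D2:**
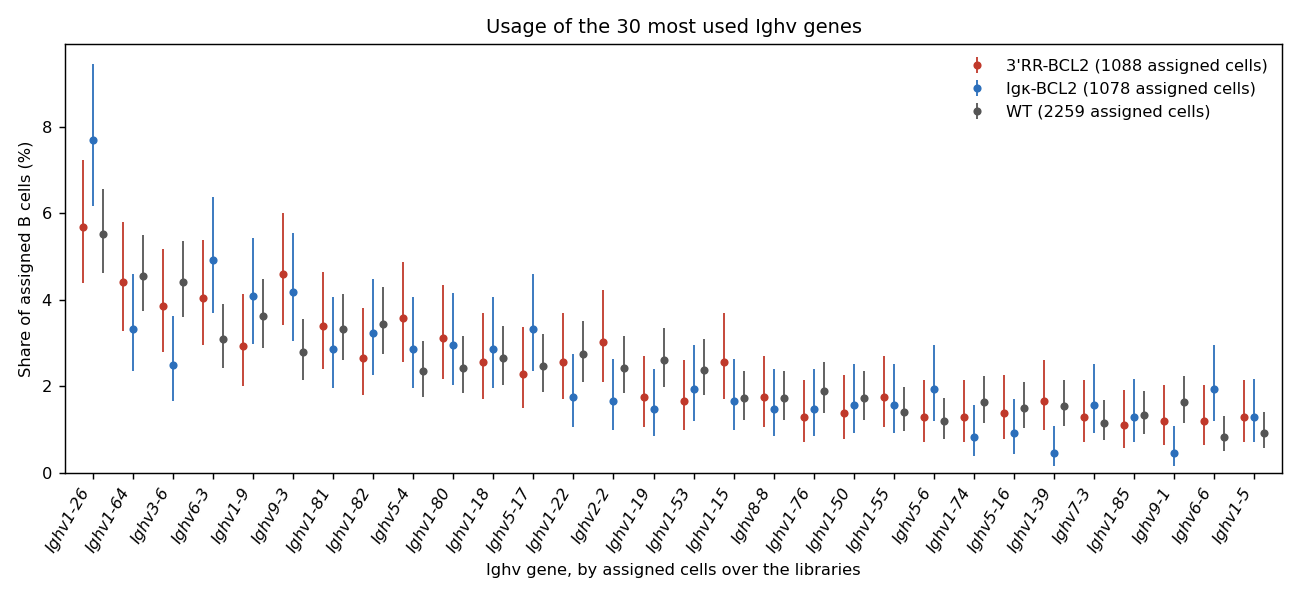
Share of assigned B cells, in percent, that used each of the 30 most used Ighv genes, in 3′RR-BCL2, Igκ-BCL2 and WT. Points are single libraries and lines exact 95% intervals; Ighv1-26 leads in all 3, and Ighv1-39 and Ighv9-1 are at 0.464% each in Igκ-BCL2.

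The repertoire was broad in all 3 libraries. The effective number of genes, the inverse Simpson index, which counts how many equally used genes would give the same diversity, was 43.4 (40.2 to 47.1), 40.9 (37.3 to 45.2) and 45.0 (42.7 to 47.5), listed for 3′RR-BCL2, Igκ-BCL2 and WT. These intervals overlap. With UMIs in place of cells as the unit, the values were 47.3 (45.7 to 49.0), 43.8 (42.1 to 45.7) and 48.1 (46.9 to 49.4), and the intervals of Igκ-BCL2 and WT parted. The exponential of the Shannon entropy was 55.0, 54.4 and 58.0. A draw of 1000 assigned cells would hold 86.8, 86.0 and 88.0 different genes, and the genes that made up 50% of cells numbered 15, 15 and 16.

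The families took similar shares in the 3 libraries, with exceptions among the smaller ones. The Ighv1 share was 54.2% (51.2 to 57.2), 56.5% (53.5 to 59.5) and 59.1% (57.1 to 61.2) of the assigned cells in 3′RR-BCL2, Igκ-BCL2 and WT. Ighv5 took 11.2%, 11.6% and 9.43%. Ighv6 took 5.24% (3′RR-BCL2) and 6.86% (Igκ-BCL2), against 3.94% in WT, a log2 ratio of 0.41 (-0.09 to 0.91) for 3′RR-BCL2 and 0.80 (0.34 to 1.26) for Igκ-BCL2. Ighv8 took 2.85% and 2.32%, against 3.81% in WT, with log2 ratios of -0.42 (-1.06 to 0.19) and -0.72 (-1.42 to -0.06). Ighv13, with the single functional gene Ighv13-2, led in 6 and 11 cells, against 3 WT cells, and its ratio for Igκ-BCL2 was 2.94 on the log2 scale (1.02 to 5.42). The remaining 11 families had ratio intervals that held 0 in both comparisons wherever both libraries had cells.

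Along the locus, cells were spread over its whole length. Of assigned cells, 21.7%, 20.7% and 18.5% (3′RR-BCL2, Igκ-BCL2, WT) used a gene within 650 kb of Ighj1, a stretch with 29 functional genes of the Ighv5, Ighv2 and 6 other families. The stretch up to 1300 kb held 33.3%, 33.0% and 31.4%, that up to 1950 kb 21.9%, 23.3% and 24.4%, and that up to 2600 kb 23.2%, 23.0% and 25.7%. Both BCL2 libraries had a larger share in the nearest stretch than WT, but the intervals overlap (19.3 to 24.3, 18.3 to 23.2 and 17.0 to 20.2).

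**Figure D3:**
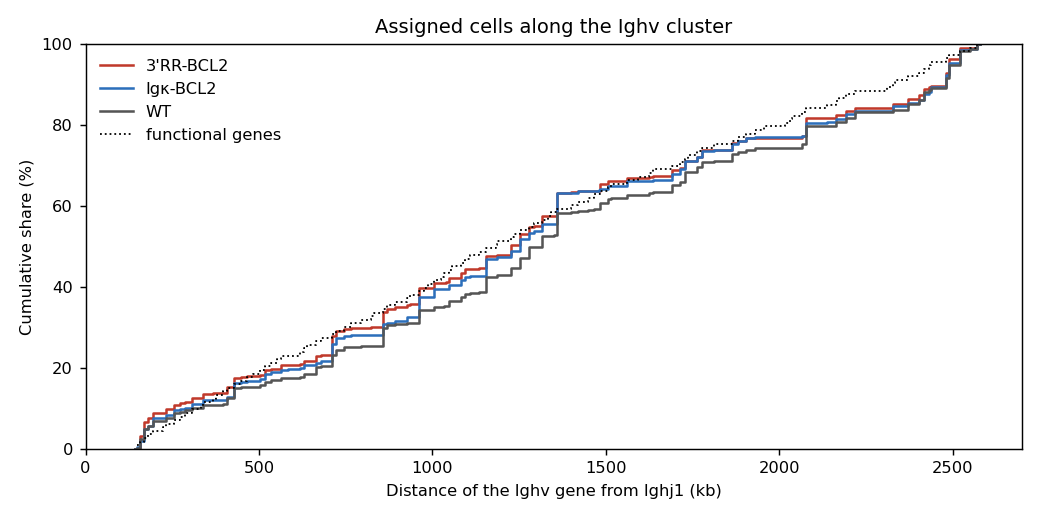
Cumulative share of assigned cells, in percent, against the distance of the used Ighv gene from Ighj1 in kb, for 3′RR-BCL2, Igκ-BCL2 and WT, with the functional genes counted equally as a dotted line. The WT line runs below both BCL2 lines along most of the locus, and each step is 1 gene, the tallest being Ighv1-26.

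Few genes differed from WT in usage. Of 52 genes with at least 20 assigned cells in 3′RR-BCL2 and WT together, 0 were 2-fold higher (0%) and 2 were 2-fold lower (3.85%), and 43 lay within 1.5-fold. Of 55 genes in the Igκ-BCL2 comparison, 3 were 2-fold higher (5.45%) and 5 were 2-fold lower (9.09%). The interval left a log2 ratio of 0 for 2 genes of the 3′RR-BCL2 comparison and 9 of the other, with no correction for the number of genes. Both comparisons share the WT library.

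In 3′RR-BCL2, Ighv9-3 was used by 50 of 1088 cells (4.596%), against 63 of 2259 WT cells (2.79%), a log2 ratio of 0.72 (0.16 to 1.28). Its UMIs per 1000000 were 5.08 in 3′RR-BCL2 and 4.95 in WT, while the sum of all Ighv UMIs was lower in 3′RR-BCL2 (below). As a share of Ighv UMIs, the log2 ratio of Ighv9-3 was 0.55 (0.29 to 0.81). Ighv8-12 was used by 7 cells in each BCL2 library, against 35 WT cells (0.643% and 0.649%, against 1.55%), with log2 ratios of -1.27 (-2.68 to -0.08) for 3′RR-BCL2 and -1.25 (-2.67 to -0.06) for Igκ-BCL2. Its UMIs per 1000000 were 1.11 and 1.19, against 2.59 in WT. With a minimum of 1 UMI these ratios were -0.35 (-0.99 to 0.25) and -0.47 (-1.14 to 0.16).

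In Igκ-BCL2, the genes with lower usage whose interval left 0 were Ighv1-63, Ighv9-1, Ighv1-39, Ighv8-12 and Ighv3-6. Ighv1-63 was used by 1 Igκ-BCL2 cell, against 20 WT cells, a ratio of -3.25 (-8.63 to -0.61), and 4 cells of 3′RR-BCL2. With a minimum of 1 UMI its ratio was -0.36 (-1.51 to 0.69). Ighv9-1 was used by 5 Igκ-BCL2 cells, against 37 WT cells, a ratio of -1.82 (-3.52 to -0.47). Ighv1-39 was used by 5 Igκ-BCL2 cells, against 35 WT cells, a ratio of -1.74 (-3.45 to -0.38), and by 18 cells of 3′RR-BCL2 (1.65%, near the 1.55% of WT). Ighv3-6 had a ratio of -0.82 (-1.49 to -0.20), and -0.34 (-0.73 to 0.04) with 1 UMI. Those with higher usage and such an interval were Ighv1-72 (13 Igκ-BCL2 against 8 WT cells, 1.77, 0.39 to 3.24, an uncertain copy), Ighv6-6 (21 against 19, 1.21, 0.25 to 2.19), Ighv6-3 (53 against 70, 0.67, 0.12 to 1.20) and Ighv1-26 (83 against 125, 0.48, 0.06 to 0.89). The level of Ighv1-72 was 1.82 UMIs per 1000000 in Igκ-BCL2 and 1.55 in WT, and that of Ighv6-6 2.92 and 2.87, log2 ratios of 0.23 (-0.26 to 0.70) and 0.03 (-0.34 to 0.39), below their ratios of usage. As shares of Ighv UMIs, their log2 ratios were 0.40 (-0.09 to 0.88) and 0.20 (-0.17 to 0.56), also below. With a minimum of 1 UMI the usage ratio of Ighv1-72 was 0.10 (-0.54 to 0.71) and that of Ighv1-26 0.19 (-0.07 to 0.46), and with 3 UMIs that of Ighv6-6 was 0.37 (-1.85 to 2.34).

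**Figure D4:**
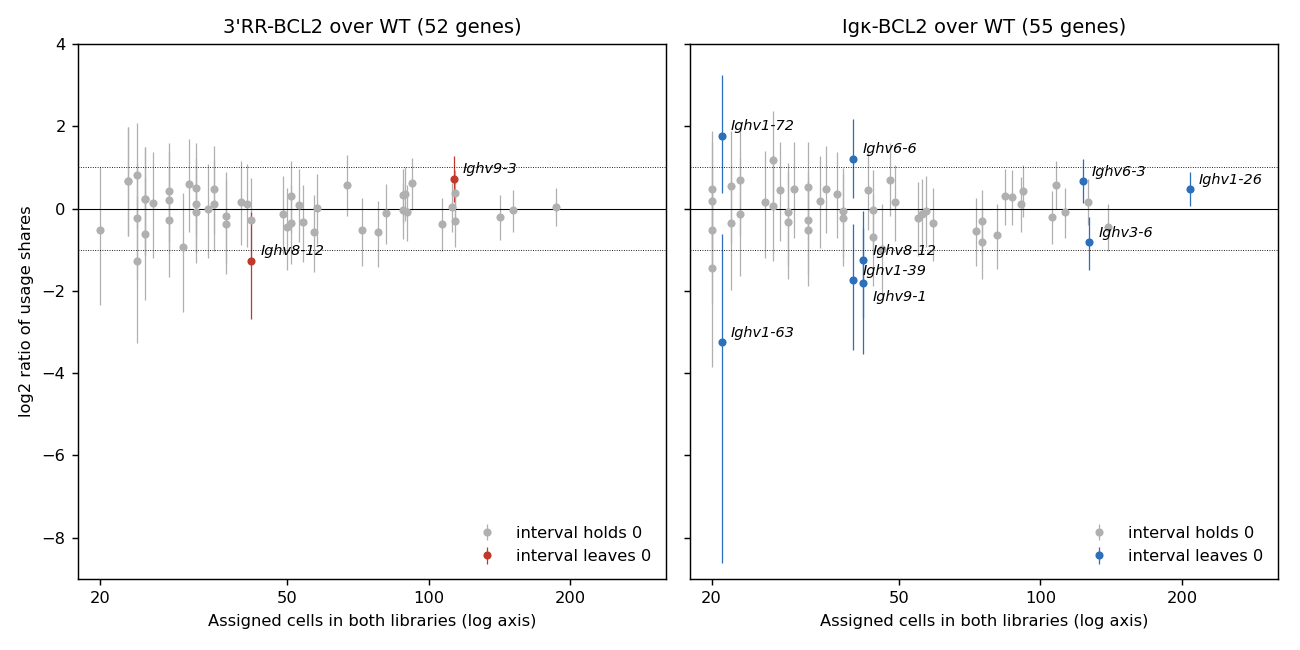
Log2 ratio of usage shares, 3′RR-BCL2 over WT (left) and Igκ-BCL2 over WT (right), against the assigned cells of both libraries on a log axis, with exact 95% intervals. Named genes have intervals that leave 0, 2 genes on the left and 9 on the right, and dotted lines mark 2-fold.

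Some constant genes of the heavy chain also separated the libraries. Ighg2c, present in the IgH haplotype of C57BL/6 and replaced by Ighg2a in other haplotypes, had 2061 UMIs in 91 cells (3′RR-BCL2) and 5212 in 59 cells (Igκ-BCL2), against 2 UMIs in 2 cells of WT. Its neighbor Ighg2b had 8694 and 16185 UMIs, against 323 in WT. Ighg3 had 1391 and 5668, against 296, while Ighg1 was frequent in WT too, with 10996 and 18989, against 7260. Much of the Ighg2c and Ighg2b sums in the BCL2 libraries lay in single cells. In Igκ-BCL2, a cell led by Ighg2c held 5066 constant UMIs and a cell led by Ighg2b 11985. In 3′RR-BCL2, such cells held 1052 and 7129. The mice had a mixed background and the IgH haplotype of each is not given in the sources used here. Ighv genes differ between haplotypes and were counted against C57BL/6 sequences, and the part of haplotype in the differences of usage and level was not tested.

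Levels per gene, as UMIs per 1000000 UMIs of all kept cells, were lower in both BCL2 libraries for most members. In 3′RR-BCL2, 78 of 86 Ighv genes with at least 20 UMIs were below WT, 2 were 2-fold higher and 20 were 2-fold lower, against 59.3% of all genes below WT, 4% 2-fold higher and 2.38% 2-fold lower. In Igκ-BCL2, 60 of 85 were below WT, 5 were 2-fold higher and 10 were 2-fold lower, against 46.4%, 4.98% and 2.45% of all genes. The median log2 ratio was -0.56 (3′RR-BCL2) and -0.34 (Igκ-BCL2), against -0.05 and 0.02 over all genes. Summed over all members, the level was 124.4, 157.5 and 177.5 per 1000000 in 3′RR-BCL2, Igκ-BCL2 and WT. GC cells, which carried few Ighv UMIs (below), made up 14.7%, 7.63% and 1.07% of cells. Within the other B cells the level was 146.5, 153.5 and 188.1, a log2 ratio of -0.36 (-0.41 to -0.31) for 3′RR-BCL2 and -0.29 (-0.34 to -0.24) for Igκ-BCL2.

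The genes 2-fold higher in level in Igκ-BCL2 rested partly on single cells. Ighv5-9-1 had 169 UMIs in Igκ-BCL2, against 55 in WT, but 121 of them were in 1 cell. Ighv1-36 had 133, against 32, of which 128 were in 1 cell, and Ighv4-1 had 94, against 77, of which 29 were in 1 cell. Without the plasma-marker cells described below, Ighv13-2 and Ighv1-20 were those still 2-fold higher. Ighv1-36 was then 2-fold lower, Ighv9-4 no longer was, and 10 genes were 2-fold lower in all. Ighv1-20 had 23 and 18 UMIs in 3′RR-BCL2 and Igκ-BCL2, against 6 in WT, but 17 of the 23 in 3′RR-BCL2 were in 1 cell. Among the lower genes, Ighv9-1 had 1.27 and 0.823 UMIs per 1000000, against 2.58 in WT, Ighv1-63 0.385 and 0.341, against 1.23, and Ighv1-61 0.361 and 0.397, against 0.819 (an uncertain copy of Ighv1-52).

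The cells were then divided by marker UMIs into 4 classes, with marker lists that hold no immunoglobulin gene. Plasma-marker cells had UMIs of at least 6 of 12 markers, GC cells of at least 3 of 10, MZ cells of at least 4 of 10, and all others formed the fourth class. They numbered 69, 44 and 37 plasma-marker, 312, 80 and 534 MZ and 5252, 5660 and 9278 other B cells (3′RR-BCL2, Igκ-BCL2, WT). GC cells numbered 969 and 478 in 3′RR-BCL2 and Igκ-BCL2 and were 1.07% of the 9956 WT cells. As the rule of the classes fixes, their own markers were high in them. S1pr2, a GC marker and a receptor that holds B cells in germinal centers, stood at 86.95, 78.5 and 69.5 UMIs per 1000000 in GC cells, against 2.15, 1.22 and 0.526 in other B cells. Fcrl5, an MZ marker, was at 105.6, 119.8 and 112.3 in MZ cells, against 9.73, 8.91 and 9.98. Of the plasma-marker cells, 61, 25 and 29 also had at least 3 GC markers, so this class mixes cells and is named only by its rule.

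GC cells carried the least Ighv RNA in all 3 libraries. Their level was 54.0 (48.9 to 59.4), 59.3 (51.9 to 67.6) and 58.6 (44.6 to 75.6) for 3′RR-BCL2, Igκ-BCL2 and WT, against 146.5, 153.5 and 188.1 per 1000000 in other B cells. An Ighv gene was assigned in 8.05%, 7.95% and 10.3% of GC cells, against 17.6%, 17.5% and 23.1% of other B cells, although GC cells were deeper (medians of 7306, 7581 and 9248 UMIs, against 4965, 4672 and 4894). Relative to heavy constant UMIs, the difference remained. GC cells had 16.3, 15.4 and 19.98 Ighv UMIs per 1000 constant UMIs, against 34.4, 31.4 and 45.8 in other B cells, log2 ratios of -1.08 (-1.23 to -0.93), -1.03 (-1.23 to -0.83) and -1.20 (-1.59 to -0.83).

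The difference was also present within unswitched cells. Among GC cells whose leading constant gene was Ighm or Ighd, the value was 17.0, 17.4 and 20.8 per 1000, against 34.9, 31.8 and 45.8 in other B cells of the same isotypes. Among switched GC cells it was 14.99 (12.6 to 17.7), 10.4 (7.56 to 13.96) and 16.0 (6.92 to 31.6, from 8 Ighv UMIs). Among switched other B cells it was 11.95 (8.17 to 16.9), 14.1 (10.5 to 18.6) and 4.85 (0.123 to 27.05, from 1 Ighv UMI). These intervals overlap in each library, and GC cells were below other B cells in Igκ-BCL2 only, so no deficit was shown within switched cells. Switched cells made up 510, 202 and 27 GC cells, and an Ighv gene was assigned in 22, 3 and 2 of them.

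MZ cells lay between GC and other B cells per 1000000 UMIs, at 80.0, 117.3 and 93.5. Per 1000 constant UMIs they had 22.7 (20.05 to 25.7), 31.1 (25.2 to 38.01) and 28.5 (26.0 to 31.1), below other B cells in 3′RR-BCL2 and WT, with log2 ratios of -0.60 (-0.79 to -0.42) and -0.69 (-0.82 to -0.55). In Igκ-BCL2, with 80 MZ cells, the ratio was -0.01 (-0.32 to 0.28), and 1 marker more made it -0.64 (-1.26 to -0.09). The share of MZ cells assigned was 19.6%, 30% and 17.8% at medians of 9608.5, 9127.5 and 9220.5 UMIs. After thinning to 2000 UMIs it was 0.641% (0.08 to 2.30), 2.5% (0.30 to 8.74) and 1.501% (0.65 to 2.94), from 2, 2 and 8 MZ cells. Other B cells stood at 4.22%, 4.61% and 6.22%. The direction thus turned in 3′RR-BCL2 and Igκ-BCL2, though the interval of Igκ-BCL2 held the 4.61% of its other B cells.

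**Figure D5:**
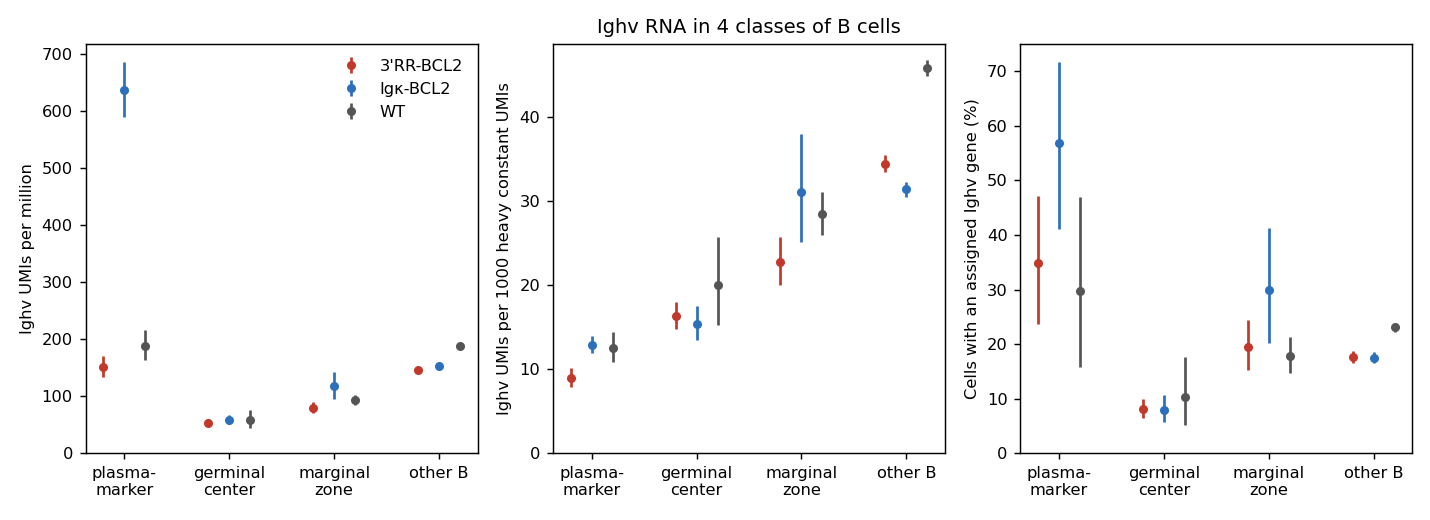
Ighv UMIs per 1000000 UMIs (left), per 1000 heavy constant UMIs (middle) and the percent of cells with an assigned Ighv gene (right) in 4 classes of B cells, for 3′RR-BCL2, Igκ-BCL2 and WT. Points are single libraries with exact 95% intervals; GC cells lie below other B cells in all 3 libraries in each panel, and plasma-marker cells of Igκ-BCL2 stand at 636.3 per 1000000, with 641 of their 698 Ighv UMIs in 12 cells.

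Ighv1 took a smaller share of MZ than of other B cells. It was used by 49.2% (36.1 to 62.3), 41.7% (22.1 to 63.4) and 44.2% (34.0 to 54.8) of assigned MZ cells, against 55.8%, 56.8% and 60.1% of other B cells, lower in 3 of 3 libraries. The intervals parted in WT (58.0 to 62.2 in other B cells). Of 48 genes with at least 30 cells in both classes together, 4 were higher in MZ cells in all 3 libraries (8.33%) and 10 were lower (20.8%). With 61, 24 and 95 assigned MZ cells, a gene of low usage is at 0 in some library by counting alone, so the lower genes are weak. The higher genes are weak too, since 1 MZ cell of Igκ-BCL2 already makes 4.17%. Whether these counts of genes, or those for GC cells below, exceed those between classes of equal usage was not tested. Ighv1-9 was used by 3, 1 and 6 MZ cells (4.92%, 4.17% and 6.32%, against 2.92%, 4.14% and 3.55% of other B cells), and Ighv5-17 by 2, 1 and 5 (3.28%, 4.17% and 5.26%, against 2.49%, 3.53% and 2.38%). The remaining higher genes, Ighv9-3 and Ighv5-9, were seen in 7 and 3 MZ cells. The most used of the lower genes were Ighv1-80, with 1, 0 and 0 MZ cells (against 32, 31 and 55 other B cells), and Ighv2-2, with 0, 0 and 1 (against 30, 18 and 54). Ighv1-22, Ighv1-19 and Ighv1-74 had 3, 1 and 0 MZ cells in all.

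The gene most used by other B cells was seen in few GC cells, all values being of small numbers. Ighv1-26 was used by 1 of 78, 1 of 38 and 0 of 11 assigned GC cells (1.28%, 2.63% and 0%), against 5.95%, 7.87% and 5.56% of other B cells. Ighv1-81 was used by 6, 3 and 1 GC cells (7.69%, 7.89% and 9.09%), against 3.35%, 2.72% and 3.36% of other B cells. In 3′RR-BCL2 it tied with Ighv9-3 at 6 GC cells. Of 49 genes, 2 were higher in GC cells in all 3 libraries (4.08%), Ighv1-81 and Ighv6-6 (1 GC cell in each library), and 15 were lower (30.6%), including Ighv1-64 with 0, 1 and 0, Ighv5-17 with 0, 0 and 0, and Ighv1-80 and Ighv1-82 with 1, 0 and 0 GC cells each. The 11 assigned GC cells of WT put most genes at 0 there, which allows a share of up to 28.5%. Ighv1 took 42.3%, 63.2% and 36.4% of GC cells, with no common direction. The effective number of genes was 46.2 (31.2 to 89.1) in 3′RR-BCL2 GC cells and 41.6 (38.4 to 45.5) in its other B cells, and an 11-cell draw held 9.93, 10.3 and 8 genes in GC cells and 9.80, 9.78 and 9.88 in other B cells. Of the WT GC cells, 3 used Ighv4-1.

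The cells with the most Ighv UMIs were mainly plasma-marker cells. Cells with at least 10 UMIs of 1 Ighv gene numbered 7, 15 and 3, of which 6, 12 and 3 were plasma-marker cells, and held 3.60%, 12.2% and 1.45% of the Ighv UMIs of their libraries (3′RR-BCL2, Igκ-BCL2, WT). In 3′RR-BCL2 the highest was a cell with 49 UMIs of Ighv6-6, with Igkv12-46 and IgM. In Igκ-BCL2 the 4 highest had 128 UMIs of Ighv1-36 with Ighg3, 121 of Ighv5-9-1 with Ighg2b, 112 of Ighv1-80 with Ighg1 and 70 of Ighv1-76 with Ighg1. The first 2 of these both carried Igkv1-117, with different heavy chains. In WT the cells had 74 UMIs of Ighv6-6 with IgM, 52 of Ighv5-4 and 25 of Ighv10-3, both with Ighg1. All cells of this kind in a library used different Ighv genes (7, 15 and 3 genes), and no combination of heavy and light V gene recurred among them.

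Over all plasma-marker cells, 24, 25 and 11 were assigned, to 20, 21 and 10 genes, with at most 2 cells of a gene. Those with 2 cells were Ighv1-74, Ighv14-3, Ighv5-4 and Ighv8-8 in 3′RR-BCL2, Ighv1-55, Ighv1-78, Ighv4-1 and Ighv5-4 in Igκ-BCL2, and Ighv14-3 in WT. Their Ighv level was 151.3 (133.6 to 170.6), 636.3 (590.0 to 685.3) and 188.3 (163.7 to 215.7) per 1000000. Most of these UMIs lay in the plasma-marker cells with at least 10 UMIs of 1 gene. They were 172 of 265 in 6 cells, 641 of 698 in 12 cells and 151 of 209 in 3 cells. The remaining 63, 32 and 34 cells held 93, 57 and 58. Their level was 59.4 (47.9 to 72.8), 77.1 (58.4 to 99.8) and 57.3 (43.5 to 74.1) per 1000000, near that of GC cells in 3′RR-BCL2 and WT. Heavy constant UMIs made up 1.68%, 4.92% and 1.499% of the UMIs of all plasma-marker cells. Per 1000 constant UMIs, they had 8.996, 12.9 and 12.6 Ighv UMIs, the lowest of the 4 classes in each library.

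Genes of known specificity or bias were each used by few cells, and Ighv7-3 by the most among those given here. Ighv11-2 and Ighv12-3 encode receptors for phosphatidylcholine in B-1 cells, usually with Igkv14-126 and Igkv4-91. Ighv11-2 was used by 2, 4 and 7 cells and Ighv12-3 by 2, 1 and 0 cells of 3′RR-BCL2, Igκ-BCL2 and WT. Among cells with any Ighv11-2 UMI (4, 11 and 25), the summed level of 8 B-1 markers was 363.1 (215.2 to 573.8), 334.1 (198.0 to 528.0) and 460.8 (367.0 to 571.2) per 1000000, against 118.0, 122.8 and 110.0 in other B cells. Of those with a light chain call, 0 of 0, 0 of 0 and 1 of 5 had Igkv14-126. For Ighv12-3, Igkv4-91 was found in 1 of 2 such cells (3′RR-BCL2) and 0 of 3 (Igκ-BCL2). Only 5, 8 and 10 cells had any Ighv12-3 UMI. Their B-1 marker level was 1498 (1154 to 1913), 357.0 (195 to 599) and 50.03 (10.3 to 146.2), against 117.5, 122.9 and 111.1 in other B cells. Ighv7-1 and Ighv7-3 of the S107 family, known for phosphorylcholine binding in Ighv7-1, were used by 3, 2 and 4 and by 14, 17 and 26 cells. Ighv5-2 (81X), favored in early rearrangements, was used by 1, 4 and 2 cells. Ighv1-72, an uncertain copy, was used by 11, 13 and 8 cells.

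The study also listed Ighv genes of tumors from other, aged mice, and these 9 genes are given here only as they stood in the 3 libraries. Ighv1-26, Ighv3-6 and Ighv6-3 are among the 10 leaders above. Ighv2-2 was used by 33, 18 and 55 cells, Ighv1-39 by 18, 5 and 35, Ighv1-5 by 14, 14 and 21, Ighv4-1 by 13, 12 and 18, Ighv10-1 by 11, 9 and 23 and Ighv10-3 by 10, 9 and 18 cells of 3′RR-BCL2, Igκ-BCL2 and WT. Shares of Ighv4-1, Ighv10-1 and Ighv10-3 lay between 0.797% and 1.19% in every library.

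Heavy and light V genes could be paired in 126, 184 and 228 cells. Pairs were diverse, with 120, 157 and 209 different pairs, and the most frequent pair was seen in 2, 5 and 5 cells (1.59%, 2.72% and 2.19%). In Igκ-BCL2 it was Ighv9-3 with Iglv1, and in WT Ighv1-81 with Igkv1-135. Lambda genes led in 14 of 126, 72 of 184 and 38 of 228 of these cells (11.1%, 39.1% and 16.7%), and in Igκ-BCL2 the 4 most frequent pairs all held Iglv1 or Iglv3. No pair recurred within GC, MZ or plasma-marker cells of any library, where 8, 9 and 3 GC, 5, 2 and 14 MZ and 17, 21 and 10 plasma-marker cells had both calls.

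Genes of the machinery that makes and transcribes V genes were also compared with WT. Of 14 genes of V(D)J recombination and the pre-B receptor, 9 had at least 20 UMIs in either comparison, and 0 were 2-fold higher or lower, with medians of -0.04 and -0.12 on the log2 scale. Over all genes, 4% were 2-fold higher and 2.38% lower in 3′RR-BCL2, and 4.98% and 2.45% in Igκ-BCL2. A count of 0 among so few genes is near these shares. Vpreb3, a pre-B receptor partner still expressed in mature B cells, was at 216.5, 265.5 and 212.6 UMIs per 1000000. Rag1, a subunit of the recombinase, fell under the limit of 20 UMIs in both comparisons. It had 12 (3′RR-BCL2) and 16 (Igκ-BCL2) UMIs, against 2 in WT, with log2 ratios of 3.08 (0.91 to 6.28) and 3.73 (1.65 to 6.90). Its partner Rag2 had none in any library. Of 3 genes of octamer factors and their coactivator (Pou2af1) at V promoters, 0 passed 2-fold. Pou2f2 was at 632.6, 751.7 and 711.8, Pou2af1 at 186.0, 150.7 and 177.4 and Pou2f1 at 57.1, 71.4 and 71.6 per 1000000.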

How the data were processed

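Raw UMI counts of each barcode were deposited by the authors after Cell Ranger 6.1.1, from a droplet-based 3′ kit, and their notes name mm10 and hg38. Gene positions and transcripts came from GENCODE for GRCm38. A barcode was kept when it had between 800 and 4500 genes, no more than 20000 UMIs, ribosomal protein UMIs from 10% up, mitochondrial ones up to 8%, and under 2 UMIs of Cd3 and of C1q genes, and plasma-marker cells were also kept above the upper limits and below the ribosomal one. No doublet caller was run: the upper limits remove some doublets, but not plasma-marker cells, and without cells with 2 UMIs of a second Ighv gene the shares assigned were 16.3%, 17.02% and 22.3%. Tied cells (9, 17 and 52) were not assigned. The members, gene lists and limits were chosen with earlier results of these data known. Named genes were the 10 most used, those with the largest ratios whose interval leaves 1, the leading genes of the classes, and genes with known specificities or from tumors. The lists for resting follicular, T and myeloid cells stood at 4989, 4726 and 4734, at 2.63, 1.63 and 1.23 and at 13.6, 1.80 and 47.1 UMIs per 1000000 in other B cells of 3′RR-BCL2, Igκ-BCL2 and WT. Calculations used Python 3.11.15, numpy 2.4.6 and scipy 1.17.1 and were tested on simulated data. A marker of the germinal center list is not reported here.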

Additional observations from a re-analysis of the deposited data

Results flagged for a closer look

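Ighv UMIs also lay in barcodes that entered no comparison, above the limit of 3 counts that a count of 0 allows. Barcodes with Cd3 or C1q UMIs held 22 Ighv UMIs in 22 barcodes of 3′RR-BCL2, 22 in 20 of Igκ-BCL2 and 21 in 29 of WT, and an Ighv gene was assigned in 7, 1 and 4 of them. All of these UMIs were in barcodes that also had over 1 UMI of Cd79a or Cd79b.

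Barcodes left out by the cell filter held 226 Ighv UMIs in 955 barcodes of 3′RR-BCL2, 160 in 752 of Igκ-BCL2 and 344 in 1284 of WT. Their level was 59.5, 78.8 and 86.6 per 1000000 UMIs, at medians of 1308, 1131.5 and 1064.5 UMIs, and 579, 520 and 898 of them had under 800 genes.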

How the results depend on the processing

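Of 117 main values recomputed under alternatives, 82 stayed within the counting interval (counts within 1.5 times) and 35 moved. The share of cells assigned was 41.9%, 42.1% and 52.6% (3′RR-BCL2, Igκ-BCL2, WT) with a minimum of 1 UMI, 5.59%, 6.45% and 9.16% with 3, 3.64%, 4.46% and 5.92% after thinning, and 15.6% and 21.8% in 3′RR-BCL2 and WT with looser limits on cells (from 500 genes, mitochondrial UMIs up to 15%). WT was highest in each. The effective number of genes was 45.8 in Igκ-BCL2 with 1 UMI, 38.2 and 31.9 in 3′RR-BCL2 and Igκ-BCL2 with 3, 33.2 in Igκ-BCL2 after thinning, and 47.3, 43.8 and 48.1 in 3′RR-BCL2, Igκ-BCL2 and WT with UMIs as the unit. The Ighv1 share was 50.9% in 3′RR-BCL2 with 3 UMIs, and 49.6% and 53.1% in 3′RR-BCL2 and Igκ-BCL2 after thinning. Genes past 2-fold in usage, 2 for 3′RR-BCL2 and 8 for Igκ-BCL2, numbered 4 and 3 with 1 UMI, 4 for Igκ-BCL2 with 3, 3 for Igκ-BCL2 after thinning, 10 for 3′RR-BCL2 with UMIs as the unit and 0 for both with a minimum of 50 cells, which left 24 and 20 genes. The log2 ratio of Ighv per constant UMI to other B cells, with 1 marker fewer, was -0.34 in 3′RR-BCL2 and -0.34 in WT for MZ, -0.72 for GC and -1.64 for plasma-marker cells of WT. With 1 marker more it was -0.91, -0.64 and -1.14 for MZ cells of 3′RR-BCL2, Igκ-BCL2 and WT. For plasma-marker cells of WT without 3 GC markers, chosen after seeing the data, it was -2.07. The causes of these moves were not tested. Of 82 recomputed ratios of the genes named for usage, none changed direction, and in 21 the interval held 0, in 6 of these with a minimum of 1 UMI. A setting that left a gene with no cells in a library gave no ratio and is not among the 82. With total UMIs taken without immunoglobulin, ribosomal protein and mitochondrial genes, and without plasma-marker cells, the counts of genes past 2-fold in level stayed within 1.5 times.

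No paired analysis was possible because each genotype has 1 library, so the replicate number shared by the labels pairs nothing. Depth limits all values per gene, since most cells had 0 or 1 Ighv UMI, and variation between mice was not measured.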
